A study of Mus musculus with 18 samples.

Results

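The fibrillar collagen genes described here are Col1a1, Col1a2, Col3a1, Col5a1, Col5a2, Col5a3 and Col11a1, which encode chains of collagen types I, III, V and XI. They were chosen by name, and all 7 were found among the 55450 genes of the expression table. The cells were mouse embryonic fibroblasts (MEF), a commercial stock from the American Type Culture Collection, transiently transfected by Lipofectamine 3000 with 1 of 3 plasmids. The empty vector was pcDNA3. The Col1a1-miR-29b vector carried human miR-29b-1 and EGFP behind a rat Col1a1 promoter, with mRFP1 under an SV40 promoter as a transfection marker. The CMV-miR-29b vector had the same build with the viral CMV promoter in place of the Col1a1 promoter. Plasmids were given in equal molar amounts, so the mass of DNA differed between them, and the share of cells that took up a plasmid was not analysed here. From 6 h after transfection, cells of each plasmid received 20 ng/ml TGF-β for 24 h or were left without it, which gave 6 groups of 3 libraries from repeated experiments. The labels do not say that the 3 came from separate cultures, so p-values measure the spread between these libraries.

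Fibrillar collagens are the rope-like proteins that give connective tissue its tensile strength. Each molecule is a triple helix of 3 chains. Type I, the main collagen of skin, bone and scar, is built from the products of Col1a1 and Col1a2, and type III is a homotrimer of the Col3a1 product that forms mixed fibrils with type I. Types V and XI are minor collagens that sit inside those fibrils and set their start and their diameter, and their chains can combine with one another. TGF-β is the best known inducer of collagen synthesis in fibroblasts, and the microRNAs of the miR-29 family are known to pair with the 3′ UTRs of many collagen mRNAs.

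The 3 miR-29 family members of the mouse are shown first because the plasmids carry 1 of them, whose mature form is the same in human and mouse. The sequences are from RefSeq (GRCm38.p6), written 5′ to 3′, with the seed (bases 2 to 8) in capitals.
mmu-miR-29a-3p: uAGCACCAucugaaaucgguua
mmu-miR-29b-3p: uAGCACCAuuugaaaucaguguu
mmu-miR-29c-3p: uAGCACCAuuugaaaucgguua
All 3 share the seed AGCACCA, so a match to it does not tell the family members apart. The miR-29b-3p sequence is annotated at Mir29b-1 on chromosome 6 (chr6:31063025-31063047, minus strand) and again at Mir29b-2 on chromosome 1.

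Seed matches were searched in the 3′ UTR of 1 coding transcript per gene (GENCODE annotation of GRCm38), on the mRNA strand only. The letters searched were TGGTGCT (7mer-m8), GGTGCTA (7mer-A1) and TGGTGCTA (8mer, which holds both and was counted once). All 7 collagen 3′ UTRs held a match, 17 in all, of which 6 were 8mers, 6 were 7mer-m8 and 5 were 7mer-A1. Of all 14313 tested genes with a 3′ UTR, 16.9% held at least 1 match. Of the 5519 with a 3′ UTR of the same length range (785 to 2498 bases), 18.1% held at least 1, 2.43% at least 2 and 0.308% at least 3. The collagen 3′ UTRs held 1.67 matches per kilobase, against 0.142 in that length range. Col5a1 held 4 matches, Col1a1 and Col5a3 held 3 each, Col3a1, Col5a2 and Col11a1 held 2 each, and Col1a2 held 1. A match is a description of the letters and not a measured binding site.

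The 8mer is the longest kind of match, and Col1a1, Col3a1, Col5a1, Col5a2 and Col5a3 each held at least 1. The first of each is printed with 8 bases before it and 6 after, the match in capitals. Positions are in GRCm38, and the sequence is that of the mRNA strand.
Col1a1, chr11:94952530-94952551, plus strand: ggaatttcTGGTGCTAtagaag
Col3a1, chr1:45348974-45348995, plus strand: tgtctcaaTGGTGCTAtaataa
Col5a1, chr2:28038026-28038047, plus strand: gtctcttgTGGTGCTAtgtgtc
Col5a2, chr1:45374959-45374980, minus strand: tttaatgaTGGTGCTAaaatta
Col5a3, chr9:20770497-20770518, minus strand: aggcctttTGGTGCTAttcctt
The other 2 members held no 8mer. Col1a2 held a single 7mer-A1, and Col11a1 held 2 7mer-m8 matches, shown here for comparison.
Col1a2, chr6:4541169-4541190, plus strand: caacacaaaGGTGCTAattagt
Col11a1, chr3:114219075-114219096, plus strand: gatttcgtTGGTGCTgtagaaa
Col11a1, chr3:114219125-114219146, plus strand: ttaaaaaaTGGTGCTcattccc

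**Figure D1:**
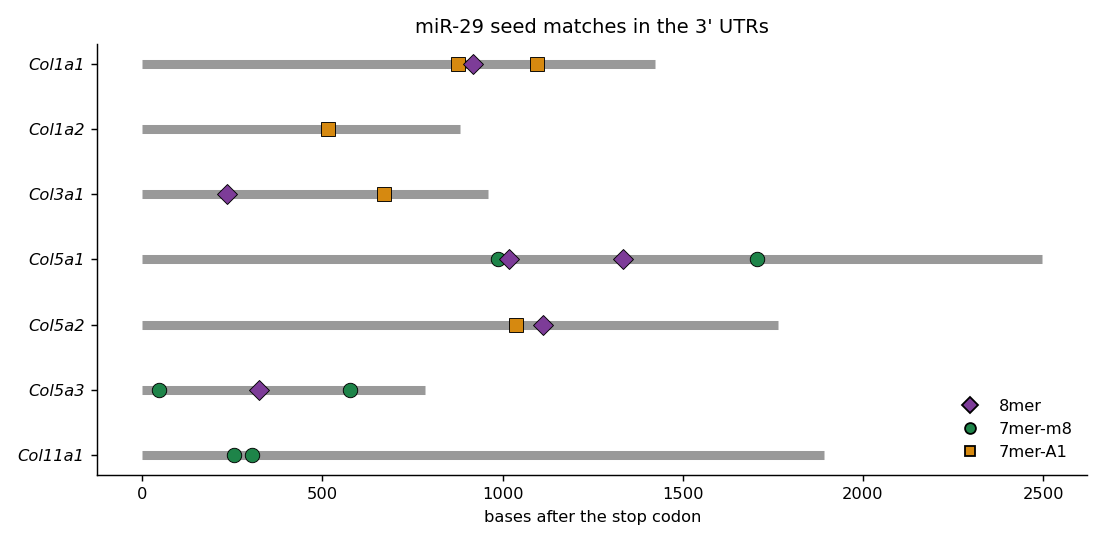
Map of miR-29 seed matches along the 3′ UTR of each fibrillar collagen mRNA, in bases after the stop codon. Grey bars are drawn to the length of the 3′ UTR, from 785 bases for Col5a3 to 2498 for Col5a1, and symbols mark the 17 matches by kind.

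In the deposited table the type I genes lie apart, Col1a1 (ENSMUSG00000001506) at chr11:94936224-94953042 and Col1a2 (ENSMUSG00000029661) at chr6:4504814-4541544. Col3a1 (ENSMUSG00000026043) at chr1:45311538-45349706 and Col5a2 (ENSMUSG00000026042) at chr1:45374321-45503282 lie near each other on opposite strands. Col5a1 (ENSMUSG00000026837) lies at chr2:27886425-28039514, Col5a3 (ENSMUSG00000004098) at chr9:20770050-20815067 on the minus strand and Col11a1 (ENSMUSG00000027966) at chr3:114030540-114220718.

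Depth was alike across the 18 libraries, with totals of 65898017 to 80332633 counts and a median of 74155860. Replicates of a group differed well beyond counting error, with a mean chi-square per gene of 40.3 to 64.5 between them. Of 12 fibroblast markers, 10 passed the filter on low counts, led by Vim at 32733 to 55911 counts per library. Thy1 and Dpt did not, with at most 8 and 16 counts. Some markers of other cell types were present. Of 6 epithelial markers, Krt14 had 17 to 197 counts per library and the other 5 at most 40, with Epcam at most 4. Of 5 endothelial markers, Cdh5 had 25 to 152, Pecam1 22 to 76 and the other 3 at most 26, with Emcn at 0. Of 6 leukocyte markers, Cd68 had 613 to 1004, Lyz2 290 to 447 and the other 4 at most 25, with Adgre1 and Cd3e at most 4. Of 5 muscle markers, Des had 951 to 1630 and Cnn1 316 to 708, while Myh11 had at most 40, Myog 14 and Myod1 8. The Mir29b-1 gene, whose precursor is what these poly(A) libraries can show of the plasmid's product, had 0 counts in all 6 empty vector libraries, 0 to 1 in Col1a1-miR-29b cells and 2 to 6 with TGF-β, and 110 to 309 in CMV-miR-29b cells and 203 to 293 with TGF-β. The plasmids carry the human sequence, and how fully its reads were assigned to this mouse gene was not tested. The counts in Col1a1-miR-29b cells are near the floor. Mature miR-29b was not measured in these libraries.

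The 7 genes together took 0.281 to 0.311% of all counts in empty vector libraries without TGF-β and 0.589 to 0.665% with it. With TGF-β the share was 0.464 to 0.472% in Col1a1-miR-29b and 0.480 to 0.515% in CMV-miR-29b libraries. They differed widely in level. Levels between genes are given as FPKM, which is per length of transcript, and the levels that follow are, unless said otherwise, those of empty vector cells without TGF-β (mean ± SD, n = 3). Col1a1 stood highest at 135.0 ± 9.03. Col5a2, the second chain of type V, followed at 77.3 ± 1.0, above Col1a2 at 43.6 ± 3.17. Col5a1 stood at 25.8 ± 1.35 and Col3a1 at 18.6 ± 1.94. The third type V chain, Col5a3, stood at 6.73 ± 0.068 and Col11a1 at 0.703 ± 0.15. No 2 neighbours among these 7 overlapped in their libraries, and this order was the same in all 6 groups. The libraries of Col5a2 and Col1a2 overlapped in empty vector cells with TGF-β, at 129 ± 2.66 and 118 ± 12.0. FPKM values of the third Col1a1-miR-29b library of each treatment were not used, so those groups have n = 2 on this scale.

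Of the other 4 fibrillar collagen genes, Col2a1, the cartilage collagen, had 62 to 293 counts per library and Col11a2 had 278 to 621. Col24a1 had at most 11 counts and Col27a1 at most 45. Col2a1 rose with TGF-β, by 1.09 ± 0.27 (SE) on the log2 scale in empty vector cells (adjusted p = 0.0236, edgeR's quasi-likelihood test). Col11a2 changed by 0.25 ± 0.25 (adjusted p = 0.726). Without TGF-β, the FPKM of Col11a1 overlapped that of Col11a2 in the empty vector and CMV-miR-29b groups.

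TGF-β raised all 7 fibrillar collagen mRNAs in empty vector cells. The rise ran from 1.71-fold for Col5a2 to 3.93-fold for Col11a1, and the libraries of the treated and untreated groups did not overlap for any of the 7. Of the 21161 genes tested, 3.88% were called higher and 11.3% were higher without overlap. The median log2 fold change of the 7 was 1.26, against 0.0023 over all genes tested. The values per library below are normalized counts, which are counts scaled for library size and composition and which compare libraries for 1 gene.

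Col1a1, the pro-α1 chain of type I collagen, had 79823, 70138 and 71123 normalized counts in the empty vector libraries c, d and e without TGF-β. With TGF-β it had 179177, 162610 and 185987. The lowest treated library, d, stood well above the highest untreated one, c, and the rise was 2.39-fold (log2 1.26 ± 0.080 SE, adjusted p = 6.81e-08, edgeR's quasi-likelihood test with Benjamini-Hochberg adjustment over all genes tested). Col1a2, the pro-α2 chain, had 48965, 42205 and 44088 without TGF-β. With it, Col1a2 had 131839, 109316 and 135663. This was a 2.79-fold rise (log2 1.48 ± 0.097, adjusted p = 8.20e-08).

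Col3a1, the single chain of type III collagen, had 17025, 13861 and 14567 normalized counts without TGF-β. It had 31719.5, 25192 and 32270 with TGF-β, of which library d was the lowest, as it also was for Col1a1 and Col1a2. The rise was 1.96-fold (log2 0.97 ± 0.11, adjusted p = 2.86e-05). The 3 genes of the main fibril collagens thus each rose, and by different amounts.

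Among the type V chains, Col5a1 rose 1.93-fold (log2 0.95 ± 0.061), from 17358 to 19356 normalized counts without TGF-β to 32818 to 37048 with it. Col5a2 rose 1.71-fold (log2 0.78 ± 0.046), from 60806 to 62780 to 101574 to 107847. Col5a3 stood at 3861, 3768 and 3803 in untreated libraries. It stood at 9236, 8727 and 9493 in treated ones. Its untreated libraries lay closest together of the 7 relative to their mean, and the rise was 2.40-fold (log2 1.26 ± 0.059, adjusted p = 2.21e-09).

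Col11a1, a chain of type XI collagen that is best known from cartilage, had the lowest level and the largest rise of the 7. Its normalized counts were 826, 861 and 557 without TGF-β. They were 3236, 2381 and 3198 with TGF-β. The rise was 3.93-fold (log2 1.97 ± 0.16, adjusted p = 6.82e-07), and in both empty vector groups its libraries spread the most of the 7 relative to their mean. Among 6 chondrocyte markers, 4 were tested and 1 was called higher with TGF-β in empty vector cells, against 3.88% of all genes. Sox9 gave most of their counts, at 571 to 1851 per library, while Acan had at most 15 and Col9a1 had 0 in every library. The summed normalized count of the 6 was 789 to 900.4 without TGF-β and 1682 to 2000.3 with it in empty vector cells. The median log2 change of the 4 tested was −1.14 there, so the sum does not show a joint rise. In the same groups the 6 osteoblast markers summed to 1592 to 1619 and 2123 to 2716. Of these, 4 were tested, with a median log2 change of 0.15, and 1 was called higher, against the same 3.88%. Runx2 gave nearly all of their counts, at 1032 to 2639 per library, while Sp7 had at most 50 and Ibsp had 0 in every library. The part of the chondrocyte and osteoblast markers in the rise of Col11a1 was not tested. In bulk RNA, a change in the number of cells of a type and a change in RNA per cell cannot be told apart.

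**Figure D2:**
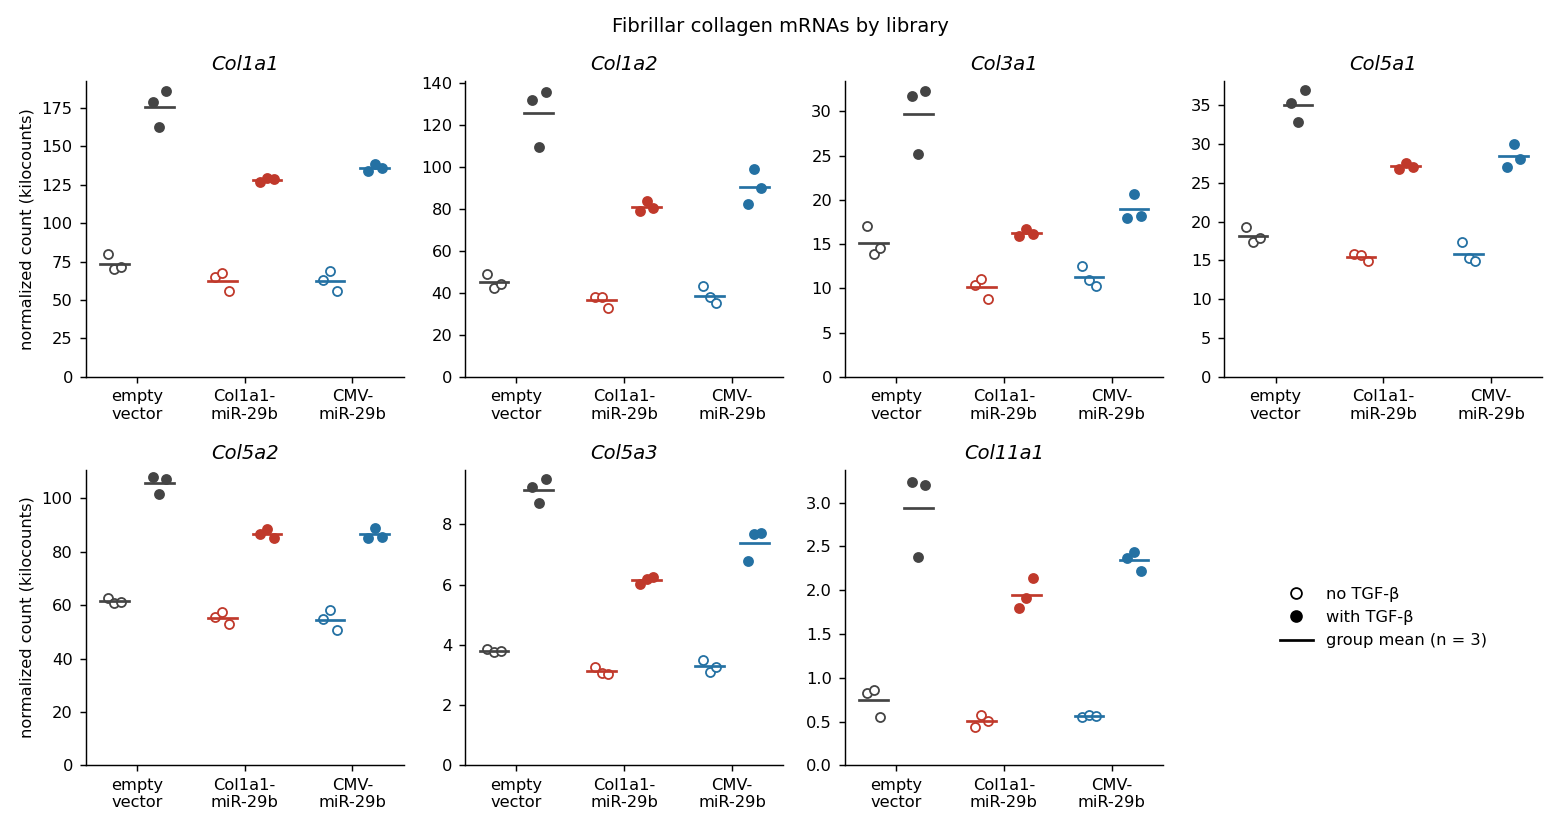
Normalized counts, with the axis in kilocounts, of the 7 fibrillar collagen genes in all 18 libraries, by plasmid, without TGF-β (open) and with TGF-β (filled), with group means as lines (n = 3). In every panel the 3 treated libraries of a plasmid stand above its 3 untreated ones, and the treated libraries of both miR-29b vectors stand below those of the empty vector, with an overlap for Col11a1 in CMV-miR-29b cells.

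TGF-β also raised all 7 genes in cells of either miR-29b vector. In Col1a1-miR-29b cells all 7 were called higher, against 3.0% of all genes tested, and none overlapped, against 11.8%. Their log2 changes ran from 0.65 for Col5a2 to 1.93 for Col11a1, with a median of 0.98. In CMV-miR-29b cells all 7 were called higher, against 3.08%, and none overlapped, against 11.1%. There the log2 changes ran from 0.66 for Col5a2 to 2.05 for Col11a1, with a median of 1.12. In the plot of the changes with TGF-β, Col11a1 had the largest rise and Col5a2 the smallest in cells of each of the 3 plasmids.

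**Figure D3:**
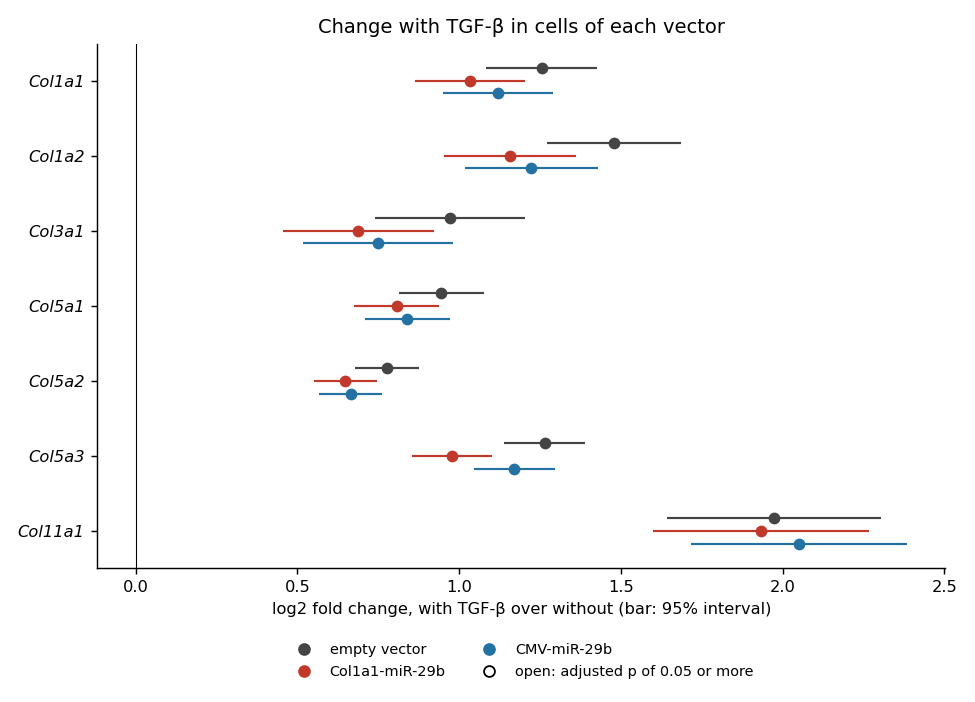
Log2 fold change with TGF-β over without for each fibrillar collagen gene, in cells of each plasmid, with 95% intervals from edgeR's quasi-likelihood fit (3 libraries against 3). All 21 points lie above 0, from 0.65 for Col5a2 in Col1a1-miR-29b cells to 2.05 for Col11a1 in CMV-miR-29b cells.

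The size of the rise with TGF-β was compared between plasmids as a difference of responses. For Col1a1-miR-29b minus empty vector, all 7 differences were negative, with a median of −0.22 on the log2 scale. None was called by edgeR, DESeq2 or limma, and edgeR called 0% of all genes tested. At an unadjusted p under 0.05, 2 of the 7 passed by edgeR, as did 961 of the 21161 genes. These were Col5a3, with a difference of −0.29 (95% interval −0.46 to −0.11, unadjusted p = 0.00322, adjusted p = 0.921), and Col1a2, with −0.32 (−0.61 to −0.035, unadjusted p = 0.0302). For Col1a1 the difference was −0.22 (−0.46 to 0.018) and for Col11a1 it was −0.039 (−0.50 to 0.42).

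For CMV-miR-29b minus empty vector, 6 of the 7 differences in response were negative, with a median of −0.11. None was called by edgeR, DESeq2 or limma (0% of all genes by edgeR), and none of the 7 had an unadjusted p under 0.05, as 1129 genes of the table did. The largest was that of Col1a2, −0.25 (−0.54 to 0.032), and Col11a1 had the one positive value, 0.077 (−0.38 to 0.53). A weaker response of the collagens to TGF-β with a miR-29b vector was therefore not established at this number of libraries, and the intervals do not show that the responses were equal.

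The chains did not rise in step. For 5 pairs of chains, the ratio of normalized counts was taken in each library and compared between treatments over the 3 plasmids by an exact two-sided permutation test within plasmids (8000 arrangements, smallest possible p 0.00025, adjusted over the 5 ratios). The ratio of Col11a1 to Col5a1, chains that can share a trimer, rose 2.18-fold (exact permutation p = 0.00025, adjusted p = 0.0003125). In empty vector cells the untreated libraries stood at 0.0427, 0.0496 and 0.0312. The treated ones stood at 0.0918, 0.0725 and 0.0863, all above them. The ratio of Col5a3 to Col5a1 rose 1.21-fold and that of Col5a1 to Col5a2 rose 1.12-fold, each with the same p. Within each of the 3 plasmids, all 3 of these ratios changed in the same direction.

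For type I collagen, whose usual trimer holds 2 chains of Col1a1 and 1 of Col1a2, the ratio of Col1a1 to Col1a2 mRNA fell by 0.15 on the log2 scale with TGF-β (exact permutation p = 0.00425, adjusted p = 0.00425). In empty vector cells the ratio of their FPKM, which is per length, was 3.10 ± 0.047 (SD, n = 3) without TGF-β and 2.66 ± 0.13 with it. In CMV-miR-29b cells it was 3.08 ± 0.34 and 2.87 ± 0.22. The libraries of the 2 treatments overlapped in the latter cells. The ratio of Col3a1 to Col1a1 fell by 0.34 on the log2 scale (exact permutation p = 0.00025, adjusted p = 0.0003125). In empty vector cells that ratio went from 0.213, 0.198 and 0.205 to 0.177, 0.155 and 0.174, with every treated library below every untreated one.

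**Figure D4:**
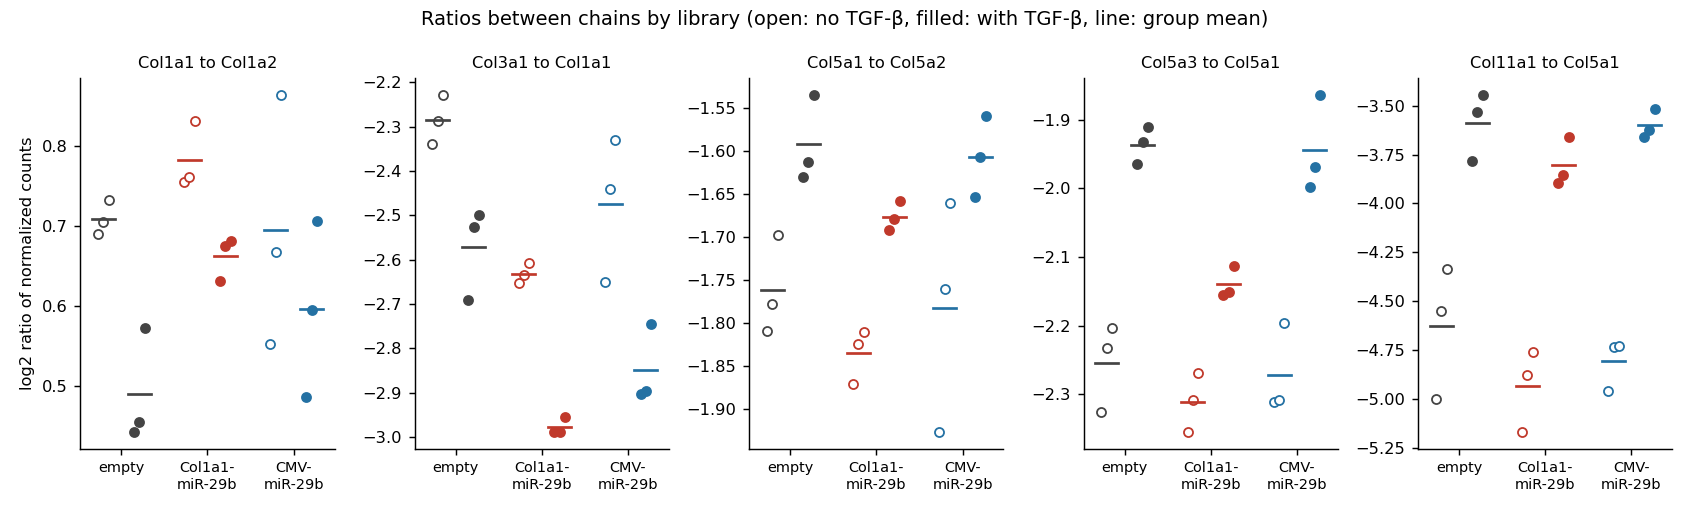
Log2 ratio of normalized counts for 5 pairs of fibrillar collagen chains in each of 18 libraries, by plasmid, without TGF-β (open) and with it (filled), with group means as lines (n = 3). Col11a1 to Col5a1 shows the largest shift, 1.13 on the log2 scale as a mean over the 3 plasmids, and Col1a1 to Col1a2 the smallest, −0.15.

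Cells with the Col1a1-miR-29b vector held less of each of the 7 mRNAs than empty vector cells when both had TGF-β. All 7 were called lower, against 7.63% of all genes tested, and all 7 were lower without overlap, against 15.2%. The falls ran from 1.22-fold for Col5a2 to 1.83-fold for Col3a1, with a median log2 change of −0.57, against 0.019 over all genes. Outside the 7, Col2a1 changed by 0.0069, Col11a2 by 0.28 and Col27a1 by −0.97 on the log2 scale. None of these was called by edgeR (adjusted p of 0.529 to 0.993). The vector comparisons below share the empty vector libraries, so they are not independent of each other.

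Col3a1 had 15951, 16689 and 16196 normalized counts in the treated Col1a1-miR-29b libraries c, d and the third library, against 25192 to 32270 in the treated empty vector libraries. This was the largest fall of the 7, by 0.87 on the log2 scale (SE 0.11, adjusted p = 0.000449). Col1a2 had 78911, 83452 and 80463, against 109316 to 135663. It fell by 0.63 (SE 0.095, adjusted p = 0.000986). Col1a1 had 126520, 129264 and 128498, against 162610 to 185987. It fell by 0.46 (SE 0.079, adjusted p = 0.00212). In each of the 3 genes the Col1a1-miR-29b libraries lay within a narrow band and the empty vector libraries spread wider.

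Among the regulators of fibril diameter, Col5a3 had 6033, 6200 and 6242 normalized counts, against 8727 to 9493 with empty vector. It fell by 0.57 (SE 0.058, adjusted p = 0.000147), the lowest adjusted p of the 7. Col5a1 fell by 0.37 (SE 0.061, adjusted p = 0.00161) and Col5a2 by 0.28 (SE 0.046, adjusted p = 0.00132). Col11a1 had 1802, 1910 and 2137, against 2381 to 3236, and fell by 0.59 (SE 0.15, adjusted p = 0.0175). The call of Col11a1 was lost when any 1 of 4 libraries was left out, namely empty vector c or e with TGF-β or Col1a1-miR-29b c or d with TGF-β, with adjusted p of 0.0515 to 0.0847.

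Cells with the CMV-miR-29b vector and TGF-β also had lower values of all 7 genes than empty vector cells with TGF-β, but none was called by edgeR. The median log2 change was −0.33, from −0.29 for Col5a2 to −0.65 for Col3a1, and 6 of the 7 were lower without overlap, against 8.01% of all genes. The lowest adjusted p was 0.0559, shared by Col5a2 and Col3a1, and the unadjusted p was under 0.05 for all 7. Only 2 genes of the whole table were called, both higher, and 0% were called lower. DESeq2 called 6 of the 7 lower, in a table where it called 143 genes higher and 151 lower, and limma on FPKM called none.

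The count of 0 changed when any 1 of 4 libraries was left out. Without the empty vector library d with TGF-β, the lowest of its group for Col1a1, Col1a2, Col3a1, Col5a1, Col5a2, Col5a3 and Col11a1, edgeR called 6 of the 7 lower, with a median of −0.43. Leaving out CMV-miR-29b libraries c, d or e without TGF-β, which are in neither group of this comparison, gave 2, 1 and 1. Col3a1 had 18007, 20638 and 18205 normalized counts in CMV-miR-29b cells with TGF-β. All 3 were below the lowest empty vector library at 25192. Col11a1 had 2365, 2441 and 2223, which overlapped the empty vector libraries.

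Without TGF-β, Col1a1-miR-29b cells had lower values of all 7 genes than empty vector cells, with a median log2 change of −0.29. Of these, 4 were called lower, against 3.70% of all genes, and 6 were lower without overlap, against 14.1%. Col3a1 had 10421, 11052 and 8822 normalized counts, against 13861 to 17025, and fell by 0.59 (SE 0.11, adjusted p = 0.00751). Col5a3 fell by 0.29 (adjusted p = 0.0116), Col5a1 by 0.23 (adjusted p = 0.037) and Col11a1 by 0.55 (adjusted p = 0.0443), whose libraries overlapped. Col1a1 changed by −0.24, Col1a2 by −0.31 and Col5a2 by −0.16 on the log2 scale, with adjusted p of 0.0554 to 0.0883. The count of 4 fell to 2 when empty vector c or any 1 of the 3 Col1a1-miR-29b libraries of these groups was left out, and to 1 without the 2 Col1a1-miR-29b libraries that have no letter of their own. DESeq2 called all 7, limma on FPKM called 0 at either pseudocount, and edgeR with a replicate block called 0.

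Without TGF-β, CMV-miR-29b cells had a median change of −0.22 against empty vector cells. None of the 7 was called by edgeR, DESeq2 or limma, as edgeR called 0% of all genes lower, while all 7 had an unadjusted p under 0.05 by edgeR. Of the 7, 5 were lower without overlap, against 5.15%. Col3a1 had the largest difference, −0.43 (95% interval −0.66 to −0.20), and Col5a2 the smallest, −0.17 (−0.27 to −0.078).

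**Figure D5:**
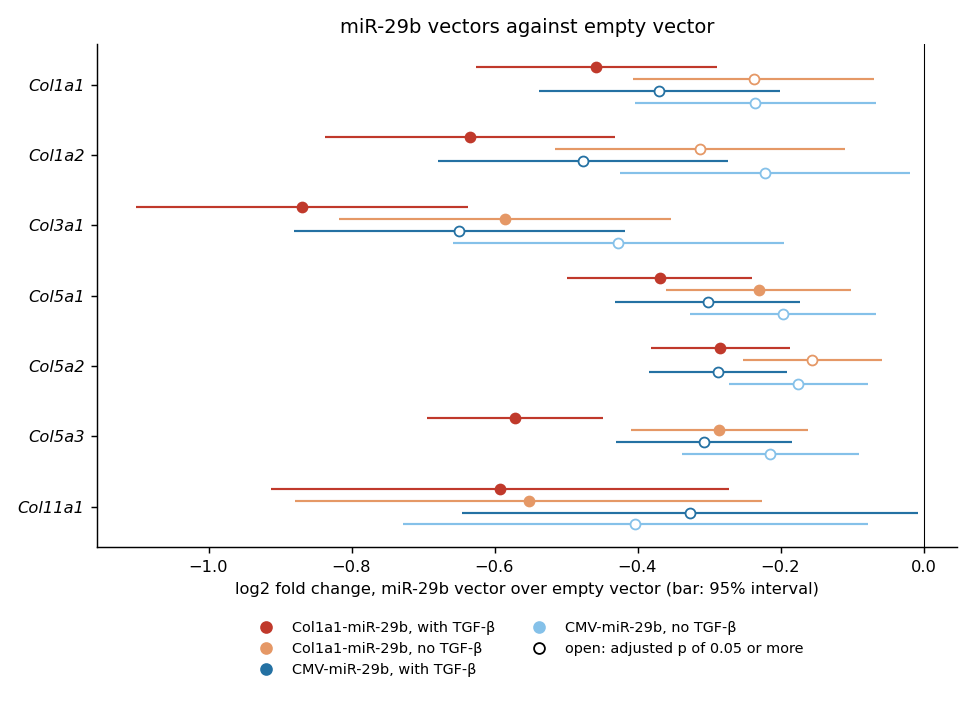
Log2 fold change of each fibrillar collagen gene in cells of a miR-29b vector over empty vector cells, with and without TGF-β, with 95% intervals from edgeR's quasi-likelihood fit (3 libraries against 3). All 28 points lie below 0, Col3a1 lies farthest from 0 in each vector with TGF-β, and filled points, which passed the threshold, are all from Col1a1-miR-29b cells.

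The vectors were also compared with each other. With TGF-β, 6 of the 7 genes had higher values in CMV-miR-29b than in Col1a1-miR-29b cells, with a median of 0.16 on the log2 scale, and 4 were higher without overlap, against 11.6% of all genes. Col5a3 alone was called, against 1.02% of all genes, with 6784, 7684 and 7720 normalized counts against 6033 to 6242 (log2 0.26 ± 0.058, adjusted p = 0.0358). That call was lost when any 1 of 5 libraries was left out, namely the 3 Col1a1-miR-29b or CMV-miR-29b d or e, all with TGF-β, with adjusted p of 0.0888 to 0.170. For Col5a2 the difference was −0.0035 (95% interval −0.10 to 0.094) and for Col1a1 it was 0.088 (−0.080 to 0.26).

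Without TGF-β none of the 7 genes was called between the vectors by edgeR, DESeq2 or limma, against 1.81% of all genes by edgeR. None of the 7 had an unadjusted p under 0.05 by edgeR. The differences ran from −0.019 (−0.12 to 0.078) for Col5a2 to 0.16 (−0.073 to 0.39) for Col3a1. The Mir29b-1 counts of 110 to 309 in these CMV-miR-29b libraries and 0 to 1 in these Col1a1-miR-29b libraries stand beside those differences.

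Other values moved with the vector comparisons. Of 12 interferon-induced genes, 7 were called higher in Col1a1-miR-29b than in empty vector cells with TGF-β, against 5.31% of all genes tested, and 7 without it, against 2.57%. None was called by edgeR for CMV-miR-29b, where 0.00945% of all genes were called higher with TGF-β and 0.00473% without, so this count alone does not set the vectors apart. Compared directly with TGF-β, 6 of the 12 were called lower in CMV-miR-29b than in Col1a1-miR-29b cells, against 193 of 21161 genes. Without TGF-β, 4 of the 12 were called lower, against 170 of 21161 genes. The summed normalized count of the 12 was 126559.6 to 133080.2 in treated empty vector libraries, 177705 to 199022 in treated Col1a1-miR-29b libraries and 132038 to 138115 in treated CMV-miR-29b libraries. Mx1, an antiviral GTPase, rose 2.01-fold in Col1a1-miR-29b cells with TGF-β (adjusted p = 0.00322). The 12 fibroblast markers summed to 86433 to 107743 in treated empty vector libraries, 77001 to 80035 with Col1a1-miR-29b and 81165 to 92446 with CMV-miR-29b. Without TGF-β they summed to 94751 to 105176 with empty vector, 76218 to 81154 with Col1a1-miR-29b, below it without overlap, and 83949.8 to 103187 with CMV-miR-29b. Of the 10 tested, 3 were called lower for Col1a1-miR-29b with TGF-β, against 7.63% of all genes, and 1 without it, against 3.70%. The 6 osteoblast markers, of which 4 were tested, had lower sums in cells of both miR-29b vectors, without overlap. Runx2 gave nearly all of these sums, so they describe mainly that gene. With TGF-β, 15.2% of all single genes were lower without overlap for Col1a1-miR-29b and 8.01% for CMV-miR-29b. Without it the shares were 14.1% and 5.15%. With TGF-β the osteoblast sums were 2123 to 2716 with empty vector, 1476 to 1792 with Col1a1-miR-29b and 1563 to 1956 with CMV-miR-29b. Without it they were 1592 to 1619, 1071 to 1343 and 1368 to 1490.1. Of the 4 tested, 1 was called lower for Col1a1-miR-29b in each treatment, against 7.63% of all genes with TGF-β and 3.70% without. None was called lower for CMV-miR-29b, against 0% of all genes. The part of the interferon, fibroblast and osteoblast genes in the lower collagen values was not tested, and the plasmid, its DNA mass and its promoter cannot be told apart here.

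The seed matches were set beside these changes as a description. With TGF-β, the 106 other tested genes with 3 or more matches had a median log2 change of −0.073 for Col1a1-miR-29b and −0.084 for CMV-miR-29b against empty vector. The 11900 genes with no match had −0.0056 and −0.014. The median 3′ UTR was 4780 bases long in the 106 genes and 793 in the 11900, so matches and 3′ UTR length cannot be told apart here. Among the collagens, Col5a1 held the most matches and had a fall of 0.37 for Col1a1-miR-29b, while Col1a2, with 1 match, had a fall of 0.63. The number of matches and the size of the fall did not follow the same order.

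Genes that act on fibrillar collagens after transcription moved less uniformly than the collagens themselves. With TGF-β in empty vector cells, 3.88% of the 21161 genes tested were called higher and 425 genes were called lower. Of 18 tested genes for folding and hydroxylation of the chains, 5 rose with TGF-β in empty vector cells and none fell. The largest rise was that of P4ha3, a subunit of prolyl 4-hydroxylase, from 845 to 907 normalized counts to 1570 to 1659 (log2 0.89, adjusted p = 1.73e-05). Of 7 tested genes for removal of the propeptides, 2 rose and 1 fell. Pcolce2, an enhancer of C-proteinase, rose by 1.04 on the log2 scale (adjusted p = 6.00e-06), and its paralog Pcolce fell by 0.40 (adjusted p = 0.00213). Of 5 lysyl oxidases, which cross-link the fibrils, only Lox was called (log2 0.45, adjusted p = 0.00585).

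Of 16 tested proteins that bind or coat the fibrils, 5 rose and 2 fell with TGF-β in empty vector cells. Postn (periostin) rose most, by 3.59 on the log2 scale (adjusted p = 0.005), from 3.81 to 39.0 normalized counts to 169 to 302. Dcn, the small proteoglycan decorin, fell by 1.11 (adjusted p = 0.00446), from 387 to 477 normalized counts to 154 to 230. Of 9 collagen receptors, 2 rose, led by the integrin chain Itga11, which rose by 2.59 (adjusted p = 9.91e-07) from 90.3 to 136 normalized counts to 628 to 695. Of 4 tested collagenases, Mmp14 alone was called, with a rise of 0.64 (adjusted p = 1.11e-05). Over these 6 lists, 16 of the 59 tested genes were called higher, against 3.88% of all genes, and 3 lower, against 425 of 21161.

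Of the 59 tested genes of these 6 lists, 1 was called higher and 5 lower in Col1a1-miR-29b than in empty vector cells with TGF-β, against 12.9% of all genes called in either direction. Col12a1, a collagen on the surface of type I fibrils, fell by 0.54 (adjusted p = 0.000224), and Ddr2, a kinase receptor for fibrillar collagen, fell by 0.55 (adjusted p = 0.000602). Mmp14 fell by 0.34 (adjusted p = 0.00376) and P4hb, the second subunit of prolyl 4-hydroxylase, fell by 0.12 (adjusted p = 0.0293). Crtap, a partner of prolyl 3-hydroxylase, rose by 0.35 (adjusted p = 0.00127). No gene of the folding, propeptide, cross-linking, fibril, receptor or collagenase lists was called by edgeR for CMV-miR-29b against empty vector in either treatment, where edgeR called 2 genes of the whole table with TGF-β and 1 without.

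Over the 18 libraries the 7 genes followed one another closely. Pearson's r of log2 CPM between pairs of them ran from 0.884, for Col3a1 and Col11a1, to 0.998, for Col1a2 and Col5a1, as a description over libraries that share groups. Against the mean of their standardised values, Col3a1 had the lowest r, 0.943. The 5 other genes that followed that mean most closely were Chst11 (r = 0.991), Mical2 (0.989), Fbn1 (0.988), Adamtsl3 (0.987) and Zfp469 (0.987). Chst11 is a chondroitin sulfotransferase, Mical2 an actin-modifying monooxygenase and Fbn1 the microfibril protein fibrillin-1.

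Upstream sequence was read from RefSeq (GRCm38.p6) for the 5 members with an entry, Col1a2, Col3a1, Col5a1, Col5a3 and Col11a1, over 250 bases before to 50 after the start. The RefSeq start equals the start of the gene in the deposited table for 4 of them, not for Col1a2. The CCAAT box (letters CCAAT, both strands) was found in 3 of the 5 and in 37.9% of 27025 promoters. The letters CAGAC, known as a SMAD-binding element of TGF-β signalling, were found on either strand in 4 of the 5 and in 49.7% of promoters. These shares are shown because the 7 genes rose together with TGF-β, and no binding was measured. The 120 bases before the start are printed for the gene with the largest rise and for Col3a1, with these motifs and the TATA box letters, read on either strand, in capitals.
Col11a1, chr3:114030420-114030539, plus strand: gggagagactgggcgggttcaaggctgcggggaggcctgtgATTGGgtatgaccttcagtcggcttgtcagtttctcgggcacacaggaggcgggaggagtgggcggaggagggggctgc
Col3a1, chr1:45311418-45311537, plus strand: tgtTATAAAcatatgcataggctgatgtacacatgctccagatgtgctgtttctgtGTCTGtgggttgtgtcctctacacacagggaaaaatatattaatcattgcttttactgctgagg
Col11a1 held an inverted CCAAT from 79 to 75 bases before its start, and Col3a1 held TATAAA from 117 to 112 bases before its start, a motif found in 14.2% of promoters. Exons of Col3a1 overlap Gm47302 on the same strand, and those of Col5a1 overlap 2810430I11Rik and Gm13372 on the other strand. How reads were assigned between overlapping genes is not given in the sources used here.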

How the data were processed

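Poly(A) RNA of 18 MEF libraries was sequenced as paired ends. Per the paper's methods, the authors trimmed reads with cutadapt, mapped them with HISAT2 and assembled them with StringTie. The deposited counts are whole numbers per gene whose totals differ between libraries, and were treated as not normalized on that ground. The methods speak of normalized counts as the input of the authors' own tests and do not say whether these columns are meant. Of counts from 1 to 40, 33.8 to 36.7% per library are multiples of 4, for which the sources used here give no reason, so counts divided by 4 were an alternative. The authors also deposited FPKM, scaled by transcript length and library size, which reads 0.0001 at a count of 0. Tool versions are not given in the sources used here. The submitters' notes list mm9, but 52506 of 55450 gene coordinates equal the GRCm38 annotation, which was used. Columns were matched to samples by title. In each treatment the third Col1a1-miR-29b column bears a letter found in no title. Its counts stand for an unlettered library of that group, and the 2 matching FPKM columns were left out. FPKM thus covers 16 libraries.

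Counts were fitted with edgeR 4.0.16 in R 4.3.3, with filterByExpr (21161 genes), TMM, 1 mean per group over all 18 libraries and quasi-likelihood tests, adjusted by Benjamini-Hochberg over all genes tested and called at an adjusted p under 0.05. Standard errors came from the F statistic. A normalized count is a count scaled by TMM to a common library size. The fit was tested on simulated data. Alternatives were DESeq2 1.42.0, its size factors, total counts, 2 count filters, limma 3.58.1 on log2(FPKM + 1) and log2(FPKM + 0.1), length and GC offsets, that division, groups alone, a replicate block and fits without single libraries. Counts are those of replicates with total depths of 65898017 to 80332633, and their error is wider than counting error.

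The members and gene lists were chosen with earlier results of these data known. Named genes were the members, the other 4 fibrillar collagen genes, the largest called rise and fall of each list, and the 5 genes most alike with a mean CPM of at least 1. A marker list sums normalized counts.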

Additional observations from a re-analysis of the deposited data

How the results depend on the processing

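Of the 7 members, all kept their direction with TGF-β in cells of each plasmid and in each vector against empty vector under every alternative that was run. With TGF-β all 7 stayed called under every alternative, except 6 in Col1a1-miR-29b cells under length and GC offsets with the replicate block. For the Col1a1-miR-29b vector with TGF-β, 6 or 7 were called under the other settings, 6 with the replicate block and 4 with length and GC offsets and the block. Without TGF-β its count of 4 became 7 with DESeq2, 2 with the groups compared alone, 1 with length and GC offsets, 1 without the 2 unlettered libraries, and 0 with limma (both FPKM pseudocounts), with the replicate block and with the block and length and GC offsets. It was 2 to 6 without single libraries. For CMV-miR-29b with TGF-β the count of 0 became 6 with DESeq2 and 0 to 6 without single libraries, with a median of −0.43 to −0.28. The 1 call between the vectors with TGF-β became 0 with a filter of at least 1 count, with the groups alone, with the replicate block, without the unlettered libraries, with limma, with length and GC offsets and with those and the block, and was 0 to 1 without single libraries. The causes were not tested.

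The median log2 change under limma on log2(FPKM + 1), whose pseudocount shrinks changes of low genes, was 1.12 for TGF-β in empty vector cells, 0.81 in Col1a1-miR-29b cells, and −0.42 with and −0.19 without TGF-β for Col1a1-miR-29b against empty vector. It was −0.47 with length and GC offsets in the treated comparison, and with the block too it was 0.88 for TGF-β in Col1a1-miR-29b cells and −0.17 for the vector without TGF-β. Values near 0 that changed sign, none of them called, were between the vectors or in the difference of responses. With TGF-β, Col5a2 was 0.00075 with DESeq2 size factors, 0.00058 with at least 1 count, 0.00045 with the replicate block, 0.0023 with counts divided by 4 and −0.022 to 0.015 without single libraries. Without TGF-β, Col1a1 was −0.026 with total counts, −0.060 with the block, −0.074 without the unlettered libraries, −0.11 with limma at either pseudocount, −0.042 with length and GC offsets and −0.099 with the block added, and −0.074 to 0.087 without single libraries. Likewise Col1a2 was −0.0090 and −0.0094 with limma, Col5a1 was −0.021 and −0.022 with limma, −0.039 with the offsets, −0.058 with the block added and −0.032 to 0.084 without single libraries, and Col5a3 was −0.015 with both. Col5a2 was −0.062 to 0.041 without single libraries. The difference in response of Col11a1 for Col1a1-miR-29b was 0.0034 with the offsets and −0.16 to 0.15 without single libraries, and for CMV-miR-29b it was −0.053 with limma on log2(FPKM + 1) and −0.049 to 0.26 without single libraries.

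Scaling by total counts moved the split of all called genes. Higher and lower calls with TGF-β in empty vector cells were 672 and 593, against 820 and 425. For Col1a1-miR-29b against empty vector they were 1469 and 1323 with TGF-β, against 1123 and 1615, and 679 and 643 without, against 543 and 784. Between the vectors without TGF-β they were 145 and 188, against 212 and 170. With length and GC offsets they were 699 and 558 with TGF-β in empty vector cells, and 593 and 558 in CMV-miR-29b cells, against 652 and 395.

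The shared letters showed no clear pairing of the libraries. Over 10020 genes, same-letter libraries of different groups had residual correlations of −0.11 to 0.17 with a mean of 0.015. Those of unlike letters had −0.19 to 0.18 with a mean of −0.0082. The replicate block was an alternative and not part of the main fit.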
